A study of Homo sapiens with 2 samples.

Results

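The cells described here are 60 high-UMI cells that carried fibrillar collagen transcripts, out of 7057 cells of UMUC3, a human bladder carcinoma line, recovered from mouse bladders. A UMI is a molecular tag that marks 1 captured transcript. A cell was taken when its barcode had at least 15000 UMIs, at most 20% of them from mitochondrially encoded genes, and at least 5 UMIs of COL1A1, COL1A2 and COL3A1 together. By that rule 26 of 2672 cells belonged to the set in the knockdown library, which is 0.973% (95% Clopper-Pearson interval 0.637 to 1.42). The set held 34 of 4385 cells of the control library, or 0.775% (0.538 to 1.08). They were compared with the cells of the same library that had 0 UMIs of the 3 genes, 2537 in the knockdown library and 4110 in the control library. The cells in between, with 1 to 4 collagen UMIs, numbered 109 in the knockdown library and 241 in the control library.

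The knockdown library came from UMUC3 cells with reduced GANAB, the gene of the catalytic subunit of glucosidase II, which trims glucose from new glycoproteins in the endoplasmic reticulum. The control library came from control UMUC3 cells. Both were grown for 14 days in the bladders of C57 nude mice, which lack T cells but keep their fibroblasts, smooth muscle, endothelium and myeloid cells. Libraries were made with 10x Genomics 3' v3 chemistry, with 10000 cells loaded per channel. There was 1 library per group, so no difference has a replicate check. All intervals cover counting error only.

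COL1A1 and COL1A2 encode the chains of type I collagen and COL3A1 that of type III collagen, the fibrils that give connective tissue its tensile strength. They are made mainly by fibroblasts and related mesenchymal cells, which in the bladder lie in the lamina propria beneath the urothelium and among the muscle bundles. KRT14, given as a further marker of these cells, is a keratin of basal and squamous epithelium and is not a fibroblast gene. In droplet libraries a barcode can carry transcripts of more than 1 cell, and free RNA from broken cells can enter any droplet. The count matrices list human genes alone, and the labels do not say whether mouse sequence was also aligned to. Whether the collagen counts came from human or from mouse transcripts therefore cannot be told apart.

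The 2 libraries held 155064055 UMIs (knockdown) and 239857346 UMIs (control). Cells of the 2 libraries shared 4 barcodes, and the collagen-carrying cells shared 0. Collagen-carrying cells had a median of 39630 UMIs in the knockdown library, against 40436 in zero-collagen cells. Control medians were 45202 UMIs in collagen-carrying cells and 43841.5 in zero-collagen cells. Detected genes were also close, with medians of 5433.5 in collagen-carrying and 5606 in zero-collagen cells of the knockdown library, and 5848 and 5892.5 in those of the control library. When the cells of each library were ordered by UMIs and divided into 4 equal bins, the knockdown bins held 8, 6, 6 and 6 collagen-carrying cells from the shallowest to the deepest, and the control bins held 7, 9, 9 and 9. All 4 bins of each library thus held such cells. In the knockdown library they had 20095 to 135336 UMIs, against 15017 to 222059 in zero-collagen cells.

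The collagen counts chose the cells and are given as a description. Collagen UMIs per cell ranged from 5 to 228 with a median of 31.5 in the knockdown library and from 5 to 369 with a median of 53 in the control library. COL1A1 (chromosome 17, 50183289 to 50201632, minus strand, GRCh38) had a lowest value of 0, a median of 14 and a highest value of 108 UMIs per cell in the knockdown library. Its lowest, median and highest values were 3, 24.5 and 170 UMIs in the control library. COL1A2 (chromosome 7, 94394561 to 94431232, plus strand) ranged from 1 to 73 UMIs with a median of 7 in the knockdown library, and from 1 to 109 with a median of 13.5 in the control library. COL3A1 (chromosome 2, 188974320 to 189012746, plus strand) ranged from 0 to 49 with a median of 7 in the knockdown library, and from 0 to 129 with a median of 14.5 in the control library. The 3 genes occurred together: all of them were detected in 24 of 26 knockdown and 33 of 34 control cells. Across cells, COL1A1 and COL1A2 UMIs had a Spearman correlation of 0.825 in the 26 knockdown cells and 0.798 in the 34 control cells, where both genes share each cell's depth and both entered the rule.

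Few cells lay close to the limit of 5 UMIs. Among knockdown cells 3 had exactly 5 collagen UMIs and 2 had 4. Among control cells 1 had exactly 5 and 3 had 4. More widely, 6 knockdown cells had 5 to 9 collagen UMIs, 10 had 10 to 49 and 10 had 50 or more, while 14 had 2 to 4 and 95 had 1. Of the control cells, 1 had 5 to 9, 15 had 10 to 49 and 18 had 50 or more, while 23 had 2 to 4 and 218 had 1. The control counts therefore fell into a large group at 0 to 4 UMIs and a small one at 11 or more, with 1 cell at 5 between them. Collagen-carrying cells held 90.5% of all collagen UMIs found in knockdown cells and 91.2% of those in control cells.

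**Figure D1:**
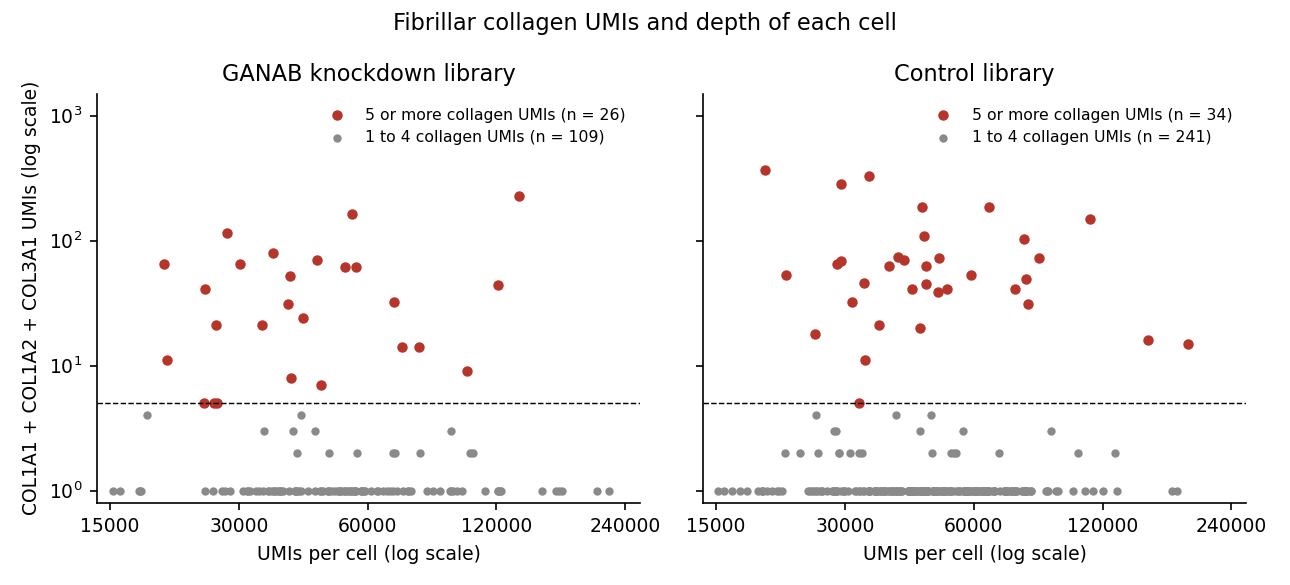
Sum of COL1A1, COL1A2 and COL3A1 UMIs (vertical, log scale) against total UMIs per cell (horizontal, log scale) for every cell with at least 1 collagen UMI; red dots are the 26 knockdown and 34 control cells with 5 or more, grey dots those with 1 to 4, and the dashed line marks 5. The red dots span shallow and deep cells and reach 228 UMIs in the knockdown library and 369 in the control library.

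Most collagen UMIs of each library lay outside the cells. All cells together held 4.33% of the knockdown library's collagen UMIs and 10.1% of the control library's. Barcodes with more than 1000 but under 15000 UMIs and at least 5 collagen UMIs, called low-UMI collagen barcodes here, numbered 444 in the knockdown library and 321 in the control library. They held 75.9% of the collagen UMIs in the knockdown library and 79.1% in the control library. Their median depth was 1729 UMIs and 614.5 genes in the knockdown library, and 2475 UMIs and 740 genes in the control library. Collagen UMIs per barcode nevertheless reached the same size in them as in the cells, with medians of 38 (knockdown) and 64 (control) and highest values of 488 and 489. The cells, chosen for their collagen, had 968 collagen counts per 1e+06 UMIs (CPM) in the knockdown library and 1513 CPM in the control library. Barcodes not chosen for collagen had 174 CPM (knockdown) and 156 CPM (control) at 10 to 100 UMIs, and 1356 CPM and 412 CPM at more than 100 and up to 1000 UMIs.

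COL1A1 made up the largest share of collagen UMIs in cells and in low-UMI barcodes of both libraries. In knockdown collagen-carrying cells COL1A1, COL1A2 and COL3A1 made up 47.3%, 30.5% and 22.2% of collagen UMIs, against 46.0%, 32.2% and 21.9% in low-UMI collagen barcodes. In control collagen-carrying cells the shares were 43.4%, 30.5% and 26.1%, against 41.9%, 27.3% and 30.9% in low-UMI collagen barcodes. The share of COL3A1 in collagen-carrying cells had overlapping intervals in the 2 libraries, 19.9% to 24.6% in knockdown and 24.5% to 27.8% in control. The control interval did not overlap that of control low-UMI barcodes, 30.3% to 31.5%. The control share of COL1A2 was also apart, 28.8% to 32.3% in collagen-carrying cells and 26.7% to 27.8% in low-UMI barcodes, while in the knockdown library the intervals of all 3 genes overlapped. Barcodes with 10 to 100 UMIs had shares of 40.8%, 36.3% and 22.9% in the knockdown library and 51.8%, 18.8% and 29.4% in the control library.

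Genes of the tumour line were at similar levels in collagen-carrying and zero-collagen cells. KRT8, a keratin of simple epithelium, was at 186 CPM in knockdown collagen-carrying cells and 194 CPM in zero-collagen cells, a ratio of 0.959 (0.841 to 1.09). Control KRT8 was at 160 CPM in collagen-carrying and 155 CPM in zero-collagen cells, a ratio of 1.04 (0.921 to 1.16). KRT8 per cell had a lowest value of 0, a median of 179 and a highest value of 415 CPM in knockdown collagen-carrying cells. In control collagen-carrying cells these values were 37.8, 166 and 376 CPM. All but 1 of the 60 cells had a KRT8 UMI. Low-UMI collagen barcodes had less, with 41.9 CPM (knockdown) and 15.2 CPM (control). KRT18, the partner of KRT8 in its filaments, was at 263 CPM in collagen-carrying and 272 CPM in zero-collagen cells of the knockdown library, and at 241 and 202 CPM in those of the control library.

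All 14 genes of the UMUC3 list, among them TMSB10, CAV1 and ITGB1, were detected. Their sum was at 16828 CPM in collagen-carrying and 17704 CPM in zero-collagen cells of the knockdown library (ratio 0.951, 0.938 to 0.963). It was at 14164 and 13826 CPM in those of the control library (1.02, 1.01 to 1.04), and this ratio fell below 1 with every cell weighted equally, at 0.985. A gene was called higher or lower by a size rule, which is no test, when its CPM differed by a factor of 1.5 or more and the 95% interval of the ratio excluded 1. S100A6, a calcium-binding protein that fibroblasts also express strongly, was the single list member that passed the size rule in each library. It was at 1513 CPM in collagen-carrying and 852 CPM in zero-collagen cells of the knockdown library, and at 966 and 369 CPM in those of the control library. A single knockdown cell held 554 of its 1959 UMIs, and without that cell S100A6 was at 1102 CPM, a ratio of 1.29 (1.23 to 1.36), which no longer passed. In low-UMI collagen barcodes S100A6 reached 11958 CPM (knockdown) and 12113 CPM (control). The whole UMUC3 list was there at 18324 CPM (knockdown) and 15717 CPM (control), so its sum does not separate cells from these barcodes.

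**Figure D2:**
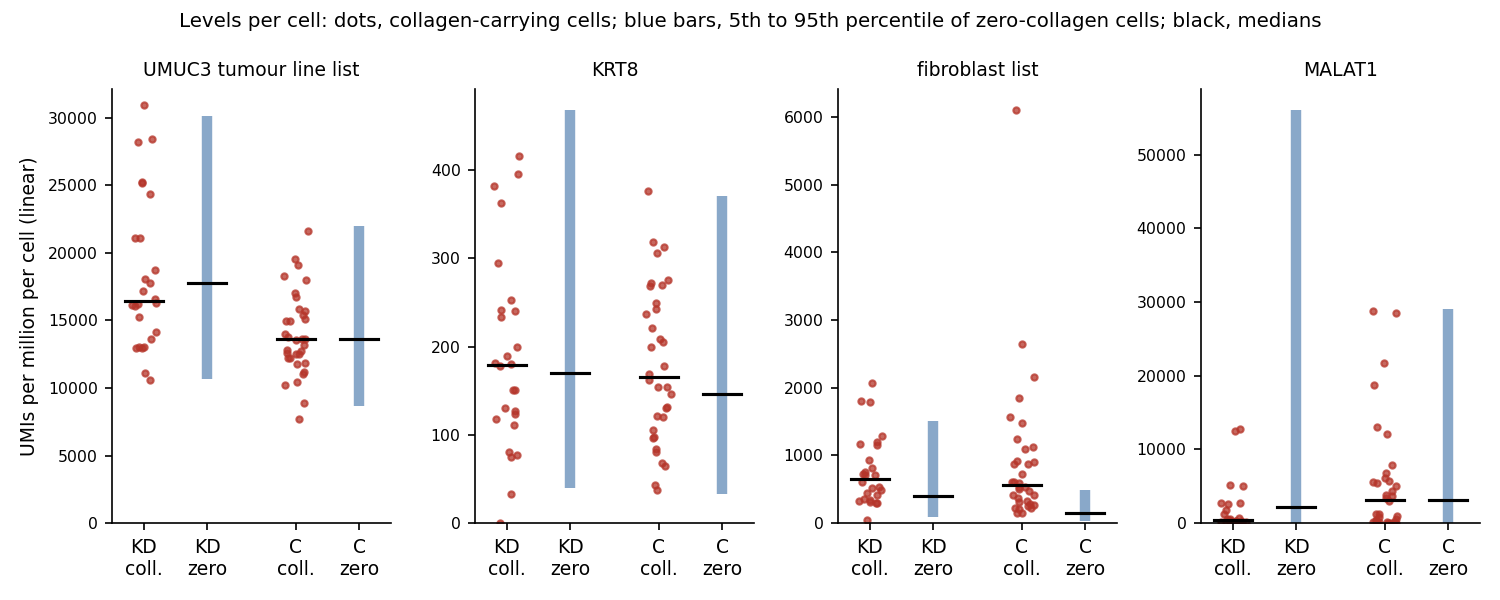
CPM in each cell (linear axes) for the UMUC3 list, KRT8, the fibroblast list and MALAT1; red dots are collagen-carrying cells (coll.) of the knockdown (KD, n = 26) and control (C, n = 34) libraries, blue bars span the 5th to 95th percentile of zero-collagen cells (zero), and black lines are medians. The UMUC3 list and KRT8 overlap between the kinds of cell, while most control dots of the fibroblast list lie above the blue bar.

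Beyond the 3 collagens, transcripts of other stromal genes were higher in collagen-carrying cells of both libraries by the size rule. Of 7783 genes measured in knockdown cells, 286 were higher (3.67%) and 287 were lower (3.69%). Of 7778 genes measured in control cells, 257 were higher (3.3%) and 154 were lower (1.98%). All counts of higher genes in this paragraph include the 3 collagens, which passed in both libraries because they chose the cells. With cells weighted equally, 363 genes were higher and 783 lower in the knockdown library. Ratios with equal weights carry no interval, so these counts leave out the interval part of the size rule. Whether the weights of the cells shifted the balance therefore cannot be told from them. Of 7240 genes measured in both libraries, 76 were higher in both (1.05%) and 11 were lower in both (0.152%). The 76 made up 26.6% of the knockdown list and 29.6% of the control list.

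The 11 genes described here from those with the largest ratios in both libraries were CXCL14, TCF21, IGFBP7, COL5A2, COL12A1, SLC25A4, CDH11, COL16A1, TIMP3, FBLN1 and ZNF90. CXCL14, a chemokine, was at 25.5 CPM in knockdown collagen-carrying cells and 0.0321 CPM in zero-collagen cells, a ratio of 794 (282 to 3086). Control CXCL14 was at 61.3 and 0.0800 CPM, a ratio of 766 (452 to 1385). CXCL14 UMIs per cell had a median of 0 and a highest value of 12 in knockdown collagen-carrying cells, and a median of 1 and a highest value of 31 in control ones. It was found in 9 of 26 and 18 of 34 of these cells, against 0.158% and 0.341% of zero-collagen cells. TCF21, a transcription factor of mesenchymal and fibroblast precursors, was at 21.6 CPM in collagen-carrying and 0.0321 CPM in zero-collagen cells of the knockdown library, and at 19.7 and 0.0600 CPM in those of the control library. It was detected in 12 of 26 knockdown and 17 of 34 control collagen-carrying cells.

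FBLN1, which encodes the matrix glycoprotein fibulin 1, was the most abundant of these matrix genes. It had a lowest value of 0, a median of 6.5 and a highest value of 19 UMIs per cell in knockdown collagen-carrying cells, and 0, 11.5 and 42 UMIs in control ones. Summed, FBLN1 was at 137 CPM in collagen-carrying and 6.29 CPM in zero-collagen cells of the knockdown library, a ratio of 21.7 (18.4 to 25.6). It was at 220 and 10.9 CPM in those of the control library, a ratio of 20.2 (18.2 to 22.5). FBLN1 was found in 21 of 26 and 33 of 34 collagen-carrying cells, and in 22.4% and 36.9% of zero-collagen cells.

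CDH11, a cadherin of mesenchymal cells, was at 20.8 CPM in collagen-carrying and 0.0963 CPM in zero-collagen cells of the knockdown library, and at 56.5 and 1.53 CPM in those of the control library. COL5A2 and COL12A1, collagens that associate with type I fibrils, had ratios of 112 and 150 in the knockdown library and 48.5 and 46.7 in the control library. COL16A1, another collagen associated with fibrils, had ratios of 32.9 (knockdown) and 121 (control). IGFBP7, an insulin-like growth factor binding protein abundant in stroma and vessels, had ratios of 59.8 (knockdown) and 135 (control). TIMP3, an inhibitor of matrix metalloproteinases, had ratios of 31.0 (knockdown) and 314 (control).

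The remaining 2 of the 11 are not stromal markers. SLC25A4 encodes a mitochondrial ADP/ATP carrier and was at 21.6 CPM in collagen-carrying and 0.570 CPM in zero-collagen cells of the knockdown library, and at 75.2 and 0.865 CPM in those of the control library. ZNF90, a zinc finger gene, was detected in all 60 collagen-carrying cells, against 17.8% and 22.7% of the zero-collagen cells of the knockdown and control libraries. It was at 338 and 23.5 CPM in the knockdown library, where 1 cell held 38% of the collagen-carrying cells' ZNF90 UMIs, and at 288 CPM in collagen-carrying cells of the control library, where its ratio was 23.9. Both genes were also high in low-UMI collagen barcodes, with ZNF90 at 5074 CPM (knockdown) and 5475 CPM (control).

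**Figure D3:**
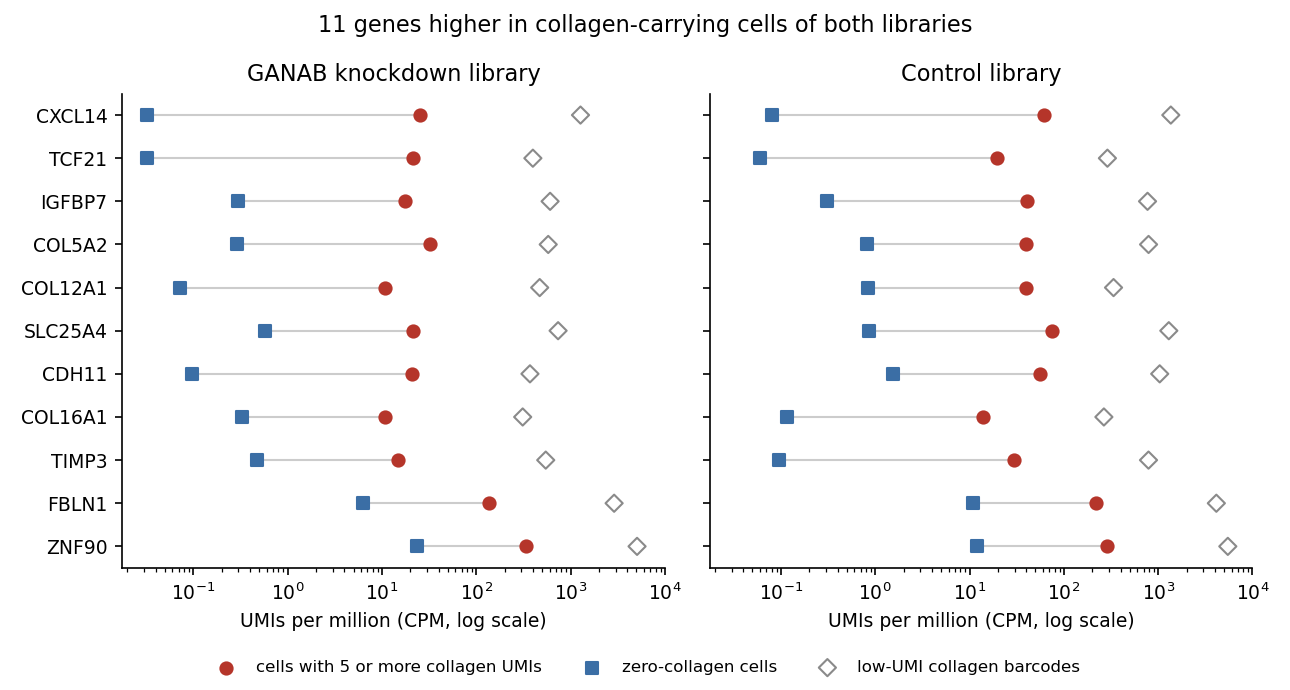
Summed level in CPM (log scale) of 11 genes with large ratios in both libraries; red dots are collagen-carrying cells, blue squares zero-collagen cells and open diamonds low-UMI collagen barcodes. In each gene and library the collagen-carrying cells lie between the zero-collagen cells and the low-UMI collagen barcodes.

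The number of these genes found together differed from cell to cell. Collagen-carrying cells had UMIs of a median of 6 of the 11 genes in the knockdown library (lowest 2, highest 10) and 8 in the control library (3 to 11). Zero-collagen cells had medians of 0 (knockdown) and 1 (control), with a highest value of 5 in each. At least 4 of the 11 genes were found in 22 of 26 knockdown and 32 of 34 control collagen-carrying cells, against 0.434% and 0.414% of zero-collagen cells. After every cell was thinned to 15000 UMIs, 12 of 26 and 25 of 34 collagen-carrying cells still had at least 4, against 0.0788% and 0.0730% of zero-collagen cells. As the 11 genes were picked on the same cells, these counts are a description.

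The excess of stromal transcripts over the zero-collagen level was then set against the collagen UMIs and compared with low-UMI collagen barcodes. No level was subtracted in the low-UMI barcodes, so the compared measures are not identical. FBLN1 had an excess of 13.5 UMIs per 100 collagen UMIs in knockdown collagen-carrying cells, against 12.3 UMIs per 100 in low-UMI collagen barcodes. Its control values were 13.8 and 15.6. CDH11 had 2.14 and 1.57 in the knockdown library, and 3.64 and 3.91 in the control library. SLC25A4 had 2.18 and 3.12 in the knockdown library, and 4.91 and 4.88 in the control library. S100A6 had 39.5 and 45.6 in the control library; its knockdown values of 68.3 and 50.6 turned round without 1 cell, at 25.7 in the collagen-carrying cells. CXCL14 was further apart in the knockdown library, with 2.63 in collagen-carrying cells and 5.39 in low-UMI barcodes, against 4.05 and 5.12 in the control library. ZNF90 had 18.3 and 20.6 in the control library; its knockdown values of 32.5 and 21.5 turned round in the same way, at 19.6 in the collagen-carrying cells without 1 cell.

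Other genes stood further from the proportion of the low-UMI barcodes. Of the 11 genes, 7 in the knockdown and 9 in the control library lay within a factor of 1.5 of it. Of 12 named genes of the fibroblast, smooth muscle and minor collagen lists, 4 did so in the knockdown library, where the other 8 lay below, and 6 in the control library, where 2 lay below and 4 above. SPARC had an excess of -2.22 UMIs per 100 collagen UMIs in knockdown collagen-carrying cells, against 3.37 in low-UMI barcodes, and 4.27 and 3.68 in the control library. ACTA2 had 2.68 and 6.41 in the knockdown library, and 5.46 and 8.73 in the control library. COL12A1 had 1.11 and 1.99 in the knockdown library, and 2.55 and 1.27 in the control library, so the 2 libraries differed in direction. TIMP2, an inhibitor of metalloproteinases, was lower in the cells of both, with 3.62 and 6.41 in the knockdown library and 1.76 and 4.16 in the control library.

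**Figure D4:**
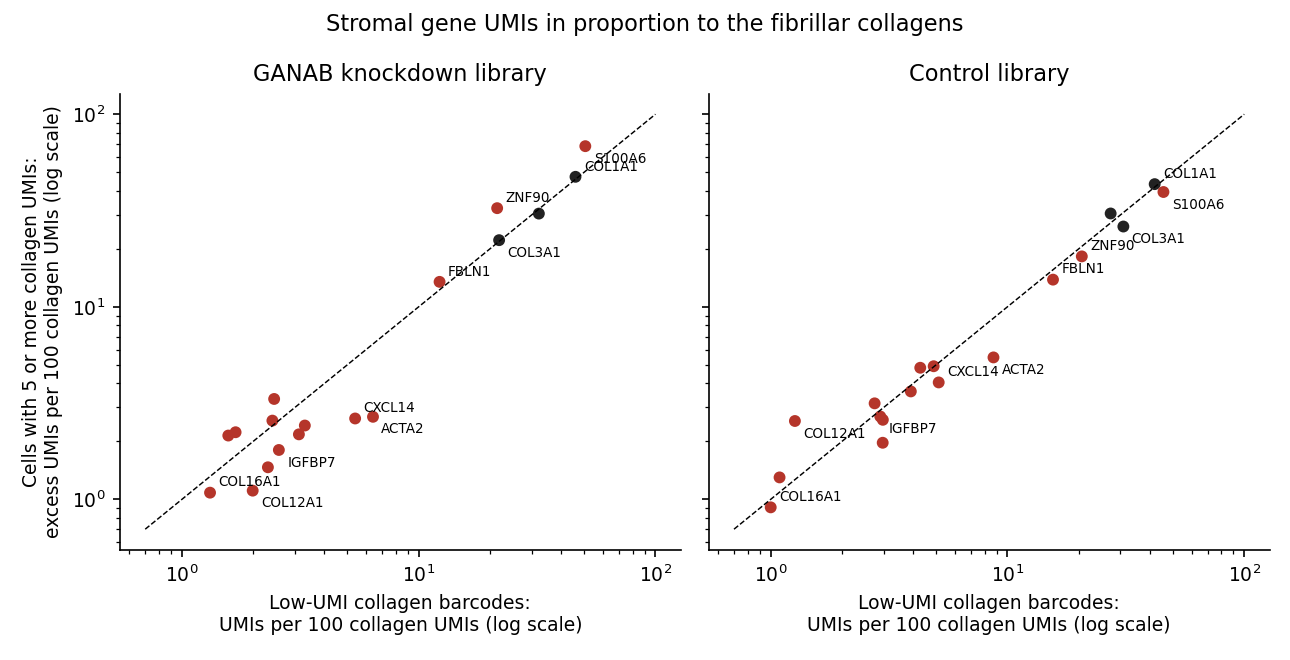
Excess UMIs over the zero-collagen level per 100 collagen UMIs in collagen-carrying cells (vertical, log scale) against UMIs per 100 collagen UMIs in low-UMI collagen barcodes (horizontal, log scale), for the 3 collagens of the rule (black), 11 genes higher in both libraries and ACTA2, FN1, PCOLCE and S100A6 (red). Points near the dashed line of equality, such as FBLN1 at 13.8 and 15.6 in the control library, have similar values on both axes. The zero-collagen level was subtracted on the vertical axis alone.

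Read as a whole list, more of the fibroblast genes passed the size rule in the control library; the difference between libraries was not tested. Of the list's 30 genes, which leave out the 3 collagens, 12 were measured in the control library, 11 were higher and 0 lower (8 without each gene's top cell), with a median log2 ratio of 1.41, against -0.03 for all measured genes. In the knockdown library 11 of the 30 genes were measured, of which COL5A2, PCOLCE, SFRP1 and FBLN1 were higher and FSTL1 was lower. Without each gene's top cell 3 were higher, as SFRP1 no longer passed. Of all genes measured there, 3.67% were higher and 3.69% lower. The list's median log2 ratio was 0.31 in the knockdown library, against 0.00 for all. The list summed to 662 CPM in collagen-carrying and 467 CPM in zero-collagen cells of the knockdown library (ratio 1.42, 1.32 to 1.52). It summed to 653 and 173 CPM in those of the control library (3.77, 3.56 to 3.99). The list levels of the collagen-carrying cells were thus close between libraries, while those of the zero-collagen cells were not. Per cell, the list had 2 to 88 UMIs with a median of 28.5 in knockdown collagen-carrying cells, against a median of 17 in zero-collagen cells, and 2 of the 26 lay above the 95th percentile of zero-collagen cells. Control collagen-carrying cells had 5 to 119 UMIs with a median of 30.5, against a median of 7 in zero-collagen cells, and 22 of 34 lay above that percentile.

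SPARC, a collagen-binding matrix protein, was the most abundant gene of the list in the knockdown zero-collagen cells. It was at 195 CPM in collagen-carrying and 216 CPM in zero-collagen cells there (ratio 0.901, 0.792 to 1.02), and at 123 and 58.6 CPM in the control library (2.10, 1.84 to 2.39). FN1, fibronectin, was at 36.3 and 12.9 CPM in the knockdown library (2.81, 2.06 to 3.76), and at 75.7 and 2.74 CPM in the control library (27.7, 22.8 to 33.3). PCOLCE, an enhancer of procollagen cleavage, was at 40.2 and 15.3 CPM in the knockdown library, and at 58.7 and 11.0 CPM in the control library. MMP2, a gelatinase, was at 44.8 and 37.6 CPM in the knockdown library, where its ratio of 1.19 did not pass the size rule, and at 31.5 and 20.4 CPM in the control library, where its ratio of 1.54 did but became 1.41 without its top cell.

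Several defining fibroblast genes were missing. DCN and LUM, small proteoglycans that bind collagen fibrils and are usual markers of fibroblasts, had 0 UMIs in all 60 collagen-carrying cells. This was not particular to them: each class of barcodes above 100 UMIs held 0 LUM and at most 2 DCN UMIs in either library. In all, 12 of the 30 fibroblast genes had 0 UMIs in knockdown collagen-carrying cells and 7 in control ones. Of 21 genes of collagen modification and crosslinking, 14 were measured in each library, where PCOLCE alone was higher and 0 were lower. Of all measured genes, 3.67% were higher and 3.69% lower in the knockdown library, and 3.3% and 1.98% in the control library. As a sum the list was near the zero-collagen level. It was at 1226 CPM in collagen-carrying and 1316 CPM in zero-collagen cells of the knockdown library, and at 1742 and 1739 CPM in those of the control library. P4HB, a subunit of prolyl 4-hydroxylase, was at 78.0 and 97.0 CPM in collagen-carrying and zero-collagen cells of the knockdown library, and at 149 and 155 CPM in those of the control library. PPIB, a prolyl isomerase of the endoplasmic reticulum, was at 620 and 713 CPM in those of the knockdown library, and at 973 and 1035 CPM in those of the control library.

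Other mesenchymal lists were mixed. Of 14 minor fibrillar and basement membrane collagens, 7 were measured in the knockdown and 6 in the control library. COL5A2, COL12A1 and COL16A1 were higher in the knockdown library and these with COL8A1 and COL4A1 in the control library. Of all measured genes, 3.67% (knockdown) and 3.3% (control) were higher. COL5A2, COL12A1, COL16A1 and COL8A1 were far below 10 CPM in zero-collagen cells. They were thus measured through the collagen-carrying cells alone and could hardly come out other than higher. COL8A1 had 51 UMIs in 10 control collagen-carrying cells and 2 UMIs in control zero-collagen cells, but 0 UMIs in knockdown collagen-carrying cells. Of 12 smooth muscle and pericyte genes, 3 were measured in each library. ACTA2, smooth muscle actin, was higher in both libraries. It was at 35.5 CPM in collagen-carrying and 9.55 CPM in zero-collagen cells of the knockdown library, and at 92.8 and 10.2 CPM in those of the control library. A single knockdown cell held 59% of the collagen-carrying cells' ACTA2 UMIs there. ACTG2, the enteric smooth muscle actin, was higher in the control library, at 22.4 and 0.395 CPM. TAGLN, an actin-binding protein of smooth muscle, was lower in the knockdown library, at 8.49 and 16.4 CPM. It was at 5.87 and 1.70 CPM in the control library, a ratio of 3.46 (1.71 to 6.27), below the 10 CPM needed to count as measured.

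Some genes with high ratios were measured in the control library and not in the knockdown library. PRRX1, a transcription factor of limb and connective tissue mesenchyme, was at 10.7 and 0.0150 CPM in control collagen-carrying and zero-collagen cells. IGF1, a growth factor secreted by mesenchymal cells, was at 19.2 and 0.0300 CPM, and CREB3L1, a membrane-bound transcription factor active in collagen secretion, at 11.2 and 0.0250 CPM. In knockdown collagen-carrying cells these 3 genes had between 3 and 5 UMIs each, too few to be measured. Their ratios there had the same direction, 36.1 (6.17 to 150) for PRRX1, 48.1 (12.9 to 155) for IGF1 and 32.1 (7.54 to 106) for CREB3L1. The genes lower in both libraries included PIK3R3, a regulatory subunit of PI3 kinase, at 13.1 CPM in collagen-carrying and 35.4 CPM in zero-collagen cells of the knockdown library and 15.5 and 31.6 CPM in those of the control library. ADGRE5, the adhesion receptor CD97, was at 31.7 and 52.0 CPM in the knockdown library, and at 27.7 and 44.6 CPM in the control library. PIK3R3 was found in 59.0% and 55.0% of the zero-collagen cells of the knockdown and control libraries, and ADGRE5 in 77.5% and 76.2%.

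Markers of blood and vessel cells were at or near 0 or close to their zero-collagen level. The 8 T and NK cell genes and the 5 mast cell genes had 0 UMIs in collagen-carrying cells of both libraries. Of the 15 macrophage and monocyte genes, 13 were at 0 in knockdown and 11 in control collagen-carrying cells, and the list's level came mostly from CD68, with ratios of 0.865 (0.574 to 1.25) in the knockdown library and 1.26 (0.963 to 1.61) in the control library. Of the 12 endothelial genes, 10 were at 0 in knockdown and 9 in control collagen-carrying cells, and EGFL7, at 104 and 98.8 CPM in the knockdown library and 73.1 and 63.1 CPM in the control library, made up nearly all of the level. CD68 and EGFL7 were each the 1 gene of their list that was measured, in both libraries, and neither passed the size rule. Of the T and NK cell and mast cell lists 0 genes were measured. Genes too low to be measured could not be called, so the size rule cannot decide on them. The neutrophil list was carried by G0S2, at 74.1 and 69.4 CPM in the knockdown library and 129 and 129 CPM in the control library. A single cell held 89 of the 96 G0S2 UMIs of knockdown collagen-carrying cells, and without it G0S2 was at 5.76 CPM. B cell, adipocyte, red blood cell and Schwann cell lists had at most 4 UMIs each in the collagen-carrying cells of either library. In the control library the Schwann cell list, with 4 UMIs, had a ratio of 6.88 (1.82 to 18.5). The adipocyte list, with 2 UMIs there, had a ratio of 107 (7.73 to 1471). In the knockdown library these lists had 1 and 0 UMIs. The B cell and red blood cell intervals included equality in both libraries.

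KRT14 (chromosome 17, 41582279 to 41586921, minus strand) did not mark these cells. It had 0 UMIs in 58 of the 60. In the knockdown library 2 of 26 collagen-carrying cells had KRT14, with 10 UMIs in 1 and 1 UMI in the other. This was 7.69% of them (0.946 to 25.1), against 0.434% (0.217 to 0.774) of zero-collagen cells. Summed, KRT14 was at 8.49 CPM in collagen-carrying and 0.185 CPM in zero-collagen cells there, a ratio of 46.0 (20.3 to 98.3), which dropped to 4.34 (0.105 to 26.7) without the cell that held 10 UMIs. In the control library 0 of 34 collagen-carrying cells had KRT14. By the limit of 3 counts this allows a share of cells with a KRT14 UMI of up to 8.82% and a level of up to 1.60 CPM. Zero-collagen cells of that library had a share of 0.195% and a level of 1.07 CPM, so 34 cells are too few to tell the shares apart. There, KRT14 was concentrated in a few zero-collagen cells, with 126, 67, 12 and 5 UMIs in the highest 4. Collagen-carrying cells held 13.1% of the knockdown library's KRT14 UMIs and 0% of the control library's.

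The knockdown cell with 10 KRT14 UMIs also had 3 UMIs of KRT5, the keratin that pairs with KRT14, 7 collagen UMIs and 95 ZNF90 UMIs among 46588 UMIs. Its fibroblast list had 2 UMIs, the fewest of all 60 cells. It also carried 11 UMIs of FOXA1 and 7 of GATA3, transcription factors of urothelium, and 6 UMIs of the desmosomal gene DSP, against under 0.1 UMI of each at the level of zero-collagen cells of that library. These genes, and those of the next cell, were picked after their values were seen. The other knockdown cell that stood apart had 20393 UMIs from 1932 genes, 11 collagen UMIs, 0 KRT8 UMIs, 165 ZNF90 UMIs, 17 FBLN1 UMIs, 10 GATA3 UMIs and 554 S100A6 UMIs. Its VIM level was 294 CPM, the lowest of the 26 cells.

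The other epithelial genes were at the level of the tumour line. The 20 basal and squamous genes summed to 430 CPM in collagen-carrying and 419 CPM in zero-collagen cells of the knockdown library (ratio 1.03, 0.943 to 1.12), and to 339 and 333 CPM in those of the control library (1.02, 0.940 to 1.10). Of the 20 genes, 3 were measured in the knockdown and 5 in the control library, and none of these passed the size rule. Of 10 urothelial genes, 2 were measured in the knockdown and 0 in the control library. GATA3 was the single one that passed the size rule, in the knockdown library, and its 17 UMIs lay in the 2 cells just described.

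**Figure D5:**
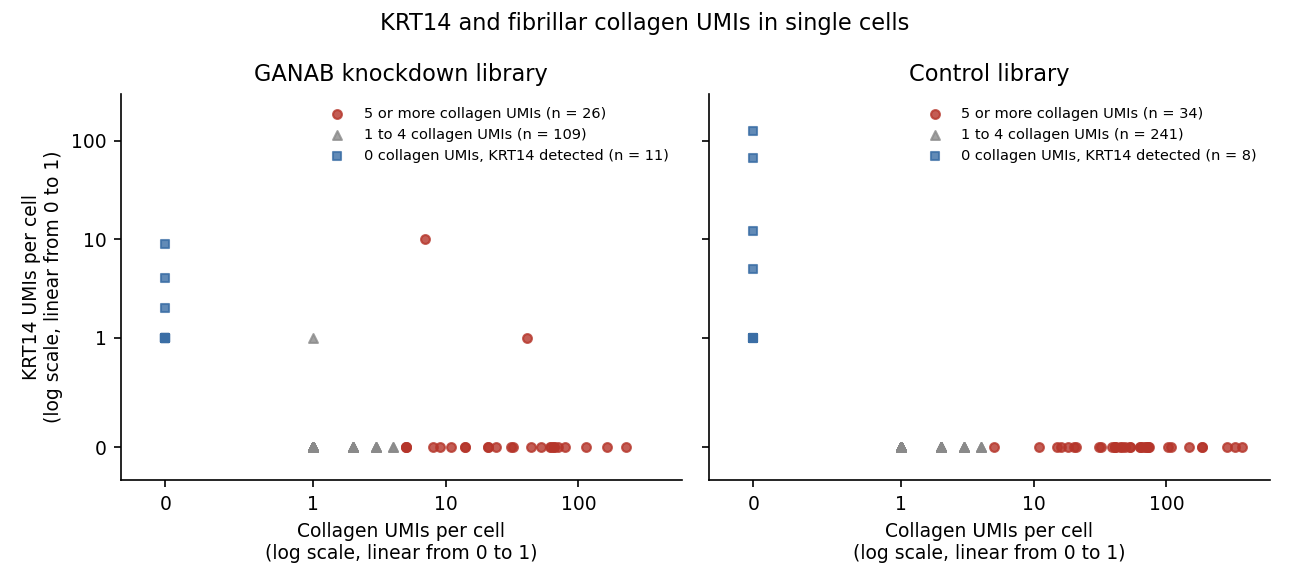
KRT14 UMIs (vertical) against collagen UMIs (horizontal) per cell, both on log scales that are linear from 0 to 1, for cells with any UMI of either; red dots have 5 or more collagen UMIs, grey triangles 1 to 4, and blue squares 0. The cells with most KRT14, at 126 and 67 UMIs in the control library, have 0 collagen UMIs, and 1 red dot reaches 10 KRT14 UMIs in the knockdown library.

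From cell to cell, collagen counts and tumour genes had little rank correlation. Spearman correlations with collagen UMIs were -0.04 (knockdown, 26 cells) and 0.04 (control, 34 cells) for KRT8 UMIs, and 0.21 and -0.08 for total UMIs. For the summed fibroblast list they were 0.29 in the knockdown library and 0.56 in the control library, and for CXCL14 0.73 and 0.35. FBLN1 had 0.16 and 0.27, SPARC 0.10 and 0.57, and CDH11 -0.16 and 0.50. Counts within a cell share its depth, so these values are a description.

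Measures that bear on doublets were given per library. Scrublet scores, which compare a cell with simulated mixtures of cells, had a median of 0.0595 in collagen-carrying and 0.0612 in zero-collagen cells of the knockdown library, and of 0.0911 and 0.0613 in those of the control library. Scores above the 95th percentile of zero-collagen cells occurred in 1 of 26 knockdown and 7 of 34 control collagen-carrying cells. The zero-collagen cells themselves had 4.14% (knockdown) and 4.38% (control) above it. Scrublet called 4 knockdown cells and 0 control cells doublets, none with 5 or more collagen UMIs. The calls rest on automatic thresholds of 0.373 (knockdown) and 0.523 (control). Whether these suited the libraries was not tested, so nothing is drawn from the calls. The simulated mixtures were made only from cells that passed the UMI and mitochondrial limits. Mixtures with low-UMI collagen barcodes were not among them, so the scores cannot decide on that kind of doublet. In the control library 1 collagen-carrying cell, with 152898 UMIs, had at least 5 UMIs of both SPANXB1 and MAN1A1 (both picked from earlier results of these data), a combination found in 0 of 4110 zero-collagen cells. The part of doublets, of free RNA and of collagen expression by the tumour cells themselves in these counts was not tested.

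Some lists passed the size rule in 1 library more than in the other, and the difference between libraries was not tested. Immediate early genes, which respond within minutes to stress and dissociation, were higher in control collagen-carrying cells for 9 of 12 genes, against 3.3% of all genes measured there. Without each gene's top cell 3 of the 12 passed. The 9 included FOS at 661 CPM in collagen-carrying and 229 CPM in zero-collagen cells and JUN at 1299 and 826 CPM. In the knockdown library EGR1 alone was higher, FOS was at 434 and 565 CPM, and JUN was at 875 and 653 CPM, a ratio of 1.34 (1.26 to 1.42). Low-UMI collagen barcodes had FOS at 4494 CPM (knockdown) and 2896 CPM (control). In the knockdown library 5 of 16 S phase genes were higher, RRM2, MCM2, GINS2, CDC6 and CDC45, and 4 of 16 genes of the G2 and M phases were lower, among them TOP2A at 82.6 and 149 CPM, against 3.67% higher and 3.69% lower of all genes. Without each gene's top cell 2 of the 16 S phase genes passed. In the control library 0 of these 32 genes passed the size rule. The S phase list per cell had a median of 4 UMIs in knockdown collagen-carrying cells and 7 in zero-collagen cells, so its higher sum of 973 CPM, against 699 CPM, came from few cells.

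Of 12 hypoxia and glycolysis genes, 9 were measured in each library, and VEGFA, the vascular growth factor, alone was higher in both. Its knockdown ratio of 1.58 became 1.38 without its top cell and no longer passed. Of the interferon genes, IFI6 and IFI27 were lower in the knockdown library, of 11 measured, and 0 of 5 measured passed in the control library. Of 12 genes of the TGF-beta response, 8 were measured in the knockdown and 9 in the control library. Of these, 0 were higher in either library, and ID1 and TGFBI were lower in the knockdown library, against 3.69% of all genes measured there. MALAT1, a nuclear non-coding RNA picked after its values were seen, had a median of 377 CPM per cell in knockdown collagen-carrying cells and 2159 CPM in zero-collagen cells, against 3164 and 3177 CPM in those of the control library. The mitochondrial share had medians of 0.439% and 0.916% in the knockdown library and 1.13% and 1.51% in the control library. The part of RNA quality in the knockdown differences was not tested.

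The knockdown label held within the collagen-carrying cells. GANAB was at 28.6 CPM in knockdown and 126 CPM in control collagen-carrying cells, a ratio of 0.226 (0.155 to 0.321), and at 42.2 and 127 CPM in zero-collagen cells. It was detected in 17 of 26 knockdown and 33 of 34 control collagen-carrying cells, and ranged from 0 to 5 UMIs in knockdown cells and from 0 to 24 in control cells. PRKCSH, the noncatalytic subunit of the same enzyme, was at 48.6 CPM in knockdown and 57.6 CPM in control collagen-carrying cells.

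Between the collagen-carrying cells of the knockdown and control libraries, 679 of 8035 measured genes were higher in knockdown (8.45%) and 958 lower (11.9%). Some genes that differed between the libraries did so by a like ratio in zero-collagen cells. The interferon gene ISG15 was at 819 CPM in knockdown and 204 CPM in control collagen-carrying cells, and at 703 and 172 CPM in zero-collagen cells. CAV1, the coat protein of caveolae, was at 1021 and 312 CPM in collagen-carrying and at 1129 and 340 CPM in zero-collagen cells. MME, the membrane protease neprilysin, was at 2.32 and 113 CPM in collagen-carrying and at 9.21 and 153 CPM in zero-collagen cells. Its ratios had the same direction but were less alike, 0.0206 (0.00421 to 0.0610) and 0.0600, and the first rests on 3 knockdown UMIs. Other genes had unlike ratios. The knockdown over control ratio of IFI6 was 2.39 in collagen-carrying and 6.42 in zero-collagen cells. That of FOS was 0.657 and 2.47, and that of S100A6 was 1.57 and 2.31. TIMP1, an inhibitor of metalloproteinases, had 0.295 and 0.713, and 1 control cell held 42% of its UMIs in control collagen-carrying cells. Stromal genes went both ways. Of 13 measured genes of the fibroblast list, SPARC, COL5A1 and THY1 were higher in knockdown collagen-carrying cells and FBN1 and FBLN1 lower. SPARC had a ratio of 1.58 (1.32 to 1.90), while TCF21 at 1.10, MMP2 at 1.42, COL5A2 at 0.811 and PCOLCE at 0.685 did not pass. FBLN1 was at 137 and 220 CPM, CXCL14 at 25.5 and 61.3 CPM and FN1 at 36.3 and 75.7 CPM, all lower. COL1A1, which had 458 and 656 CPM, did not pass the size rule. With 1 library per group, the effect of the knockdown and the difference between libraries cannot be told apart.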

How the data were processed

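Single-cell RNA was measured in 2 libraries, 1 per group. Each deposited matrix holds unnormalised UMI counts for 33538 genes and 6794880 barcodes, per the file headers. Cell Ranger 3.1.0 and GRCh38 are named in the submitters' processing notes. The matrices were thus not restricted to cells. Cells were chosen by the UMI, mitochondrial and collagen limits given above, and no barcode was removed as a doublet. Scrublet scores came from scanpy 1.11.5.

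UMIs were summed over each set of cells and divided by the summed total, giving CPM. Ratios of these sums carry exact conditional binomial 95% intervals, and ratios with cells weighted equally carry none. A gene was measured at 10 CPM or more in either set with at least 20 UMIs over both. For a count of 0 the limit was 3 counts over the set. The 27 gene lists hold 306 genes, all found (CCN1 and CCN2 as CYR61 and CTGF). Rows that share a symbol, RGS5 among them, were added. The cells and lists were chosen with earlier results of these data known. Genes were named by rule: the 12 higher and 8 lower in both libraries by their smaller ratio, the 6 highest ratios per library, and up to 4 per list by level; mitochondrial and clone-based names were left out. A few genes that met this rule are not reported here. Positions came from GENCODE release 29. The code was tested on simulated counts. Analyses used Python 3.11.15, numpy 2.4.6, scipy 1.17.1 and pandas 2.3.3. Alternatives are in the closing section.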

Additional observations from a re-analysis of the deposited data

Results flagged for a closer look

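There were 11 genes that passed the size rule in opposite directions in the 2 libraries, and the difference between the libraries was tested for none of them. The log2 ratio of collagen-carrying over zero-collagen cells of S100A4, a calcium-binding protein of motile and mesenchymal cells, was -0.68 in the knockdown library and 2.36 in the control library. That of FSTL1, a secreted glycoprotein of the fibroblast list, was -0.89 in the knockdown library and 0.65 in the control library, where it no longer passed without its top cell (ratio 1.03). SPANXB1, a cancer-testis gene, had -2.74 in the knockdown library and 0.62 in the control library; 3 of 26 knockdown collagen-carrying cells had at least 5 UMIs of it, against 21.6% of zero-collagen cells, and in the control library 1 of 34 did, against 1.14%, a cell that held 39 of its 41 UMIs there. Lower in the knockdown and higher in the control library were also CC2D2A (-1.18 and 0.68), GMPR (-0.86 and 0.59), ZFAND2A (-1.34 and 0.88), HERPUD2 (-1.37 and 0.67) and ZFX (-0.70 and 0.78). Higher in the knockdown and lower in the control library were STEAP3 (0.72 and -0.72), FAM241A (0.75 and -1.05) and TMEM168 (0.67 and -0.67).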

How the results depend on the processing

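Of 117 values recomputed for the main results, 93 stayed within their limits, 22 moved and 2 reversed. The ratio of the UMUC3 list in the control library, 1.02, became 0.985 with cells weighted equally and 0.977 with every cell thinned to 15000 UMIs. In the knockdown library, where it was 0.951, it was 0.973, 0.967 and, without the cell with most collagen, 0.992. The KRT14 ratio of 46.0 in the knockdown library was 5.27 at a minimum of 10 collagen UMIs and 4.34 without the cell with most KRT14, an alternative chosen after seeing the data; both leave out the same cell. The fibroblast list ratio in the control library, 3.77, was 3.47 at a minimum of 3 collagen UMIs, 3.49 at a minimum of 20000 UMIs, 3.44 without the cell with most collagen, 4.76 with equal weights and 5.15 thinned; in the knockdown library, 1.42 became 1.53 at a minimum of 10 collagen UMIs. Counts of genes depended most on the size rule. Genes higher in collagen-carrying cells numbered 100 (knockdown) and 115 (control) at a fold of 2, 57 and 72 at 50 CPM, and 406 in the control library with equal weights. These counts include the 3 collagens that chose the cells. Genes lower numbered 89 and 19 at a fold of 2, 44 and 2 at 50 CPM, and 783 and 336 with equal weights. The causes of these changes were not tested. The counts with equal weights leave out the interval part of the size rule, so they cannot show an effect of the weights alone. Without the knockdown cell that had no KRT8, also chosen after seeing the data, none of the recomputed results (the GANAB ratio, the UMUC3 and fibroblast list ratios and the counts of genes higher and lower) moved past its limit, but S100A6 lost its call. Each named gene outside the rule that passed the size rule was also recomputed without the collagen-carrying cell holding most of its UMIs, a choice made after seeing the data that can only take UMIs away. Of these 63 values 52 still passed and 11 did not: COL12A1, COL16A1, GATA3, PLAUR and S100A6 in the knockdown library, and CREB3L1, DUSP1, JUN, MMP2, PRRX1 and TIMP1 in the control library. The 52 include every gene called lower, a call that taking UMIs away favours. The 11 were all called higher, so the recomputation bears on the higher calls alone. COL12A1, COL16A1, GATA3, CREB3L1 and PRRX1 were lost because too little was left to be measured. ZNF90 kept its call in the knockdown library, with a ratio of 9.12 in place of 14.4. No paired analysis was possible because the labels give 1 library per group and no shared replicate numbers. At 26 and 34 cells, a gene at 10 CPM rests on few UMIs, which limits the genes that could be measured.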

Other observations

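DCN, the fibroblast proteoglycan with 0 UMIs in collagen-carrying cells, was present elsewhere in the libraries. Barcodes with 1 to 9 UMIs had DCN at 49.6 CPM in the knockdown library and held 144 DCN UMIs in the control library, and barcodes with 10 to 100 UMIs held 62 DCN UMIs in the knockdown and 246 in the control library. Each class of barcodes above 100 UMIs held at most 2 DCN UMIs in either library, low-UMI collagen barcodes included. KRT14 in the control library lay mostly outside the collagen-carrying and the low-UMI collagen barcodes: zero-collagen barcodes with more than 1000 but under 15000 UMIs held 51.4% of its 481 UMIs, and low-UMI collagen barcodes held 1 UMI.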
